A study of Mus musculus with 8 samples.

Results

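The heat shock chaperones described here are the products of 10 mouse genes, taken by name from a count table of 24980 genes. They are the stress-inducible HSP70 genes Hspa1a and Hspa1b, the constitutive HSP70 gene Hspa8, the HSP110 gene Hsph1, the J-domain gene Dnajb1, the stress-inducible HSP90 gene Hsp90aa1, the small heat shock protein genes Hspb1 and Cryab, and the mitochondrial chaperonin genes Hspd1 and Hspe1. All 10 were in the table and all 10 passed the filter on low counts, as did 17582 genes in all. RNA was measured in 8 libraries of mouse skeletal myogenic progenitors, with 2 biological replicates in each of 4 groups. TF cells came fresh from teratomas, the mixed-tissue tumors that EGFP-labelled E14 embryonic stem cells had formed in irradiated, cardiotoxin-injured leg muscle of NSG-mdx4Cv mice, which lack adaptive immunity and dystrophin. The study sorted the teratoma-derived cells as negative for CD31 and CD45 and positive for α7-integrin and VCAM-1. TE cells were teratoma-derived progenitors cultured on gelatin in myogenic expansion medium to passage 8. SF cells were freshly isolated satellite cells, which are the resident stem cells of adult muscle, and SE cells were satellite cells grown to passage 8 in the same way. The age, sex and strain of the mice that gave the satellite cells, and whether replicates shared a mouse or a teratoma, are not given in the sources used here.

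Heat shock proteins keep other proteins folded. HSP70 binds exposed hydrophobic stretches of a client under the direction of J-domain partners, HSP110 and BAG proteins help it exchange nucleotide and release the client, and HSP90 takes over clients such as kinases and receptors for late folding steps. Small heat shock proteins hold unfolded clients without using ATP, and the HSP60 barrel with its HSP10 lid folds proteins inside mitochondria. Heat shock factor 1 raises transcription of many of these genes within minutes of heat or proteotoxic stress, and in muscle Hspb1 and Cryab products also associate with the contractile and intermediate filament apparatus.

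Promoter sequence is given here because several members are textbook targets of heat shock factor, which binds inverted repeats of the unit NGAAN. Windows from 250 bases before to 50 bases after the gene start, from RefSeq on GRCm38.p6, matched 7 of the 10 genes. Hspa8, Hsp90aa1 and Cryab were not matched. The motif TTCNNGAANNTTC, searched on both strands, stood in 0.603% of 32817 mouse promoter windows and in the windows of Hsph1, Hspd1 and Hspe1. Its shorter parts, GAANNTTC or TTCNNGAA, which lie within the longer motif and read the same on both strands, stood in 15.1% of windows and in those of 6 members, Dnajb1 being the exception. The stretches below read 5′ to 3′ on the strand of the gene, with matches to either short form in capitals.
Hspa1a: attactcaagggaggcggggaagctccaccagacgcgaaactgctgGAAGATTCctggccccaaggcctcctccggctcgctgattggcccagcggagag
Hspb1: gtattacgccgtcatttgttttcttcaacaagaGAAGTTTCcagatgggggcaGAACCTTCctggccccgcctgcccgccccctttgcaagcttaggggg
Dnajb1: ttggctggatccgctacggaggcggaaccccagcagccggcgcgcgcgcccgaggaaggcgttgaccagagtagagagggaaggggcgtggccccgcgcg
Hspe1: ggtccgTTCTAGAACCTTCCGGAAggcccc
Hsph1: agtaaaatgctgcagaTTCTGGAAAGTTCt
The first 3 stretches run from 150 to 51 bases before the start, at chr17:34972207-34972306 on the minus strand for Hspa1a, chr5:135887769-135887868 on the plus strand for Hspb1 and chr8:83608025-83608124 on the plus strand for Dnajb1. The Hspe1 stretch runs from 95 to 66 bases before the start, at chr1:55088053-55088082 on the plus strand. The Hsph1 stretch runs from 20 to 49 bases after the more upstream of the 2 starts that the table gives for this gene, at chr5:149636287-149636316 on the minus strand. The Hspa1a stretch is also that of Hspa1b, at chr17:34959289-34959388, since the windows of this copy pair differed at 4 of 300 bases and at 0 of the 100 bases printed. In Hspe1 the capitals form 1 run because 3 short matches overlap. That run also lies in the window of Hspd1, on the opposite strand, from 144 to 127 bases before its RefSeq start. GENCODE M21 gives Hspd1 a different start, which lies 111 bases from the start it gives for Hspe1. These matches are letters in a window and say nothing about binding in these cells.

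Each library held between 11930961 and 21146632 estimated counts, and reads of the ribosomal precursor Rn45s made up 7.99% to 21.3% of them. The members together took 0.889% and 0.906% of the counts in the TF libraries and 0.347% and 0.363% in the TE libraries. In satellite cells they took 1.64% and 1.74% of the counts when fresh and 0.585% and 0.414% after expansion. Fresh libraries of either origin therefore held a larger share of chaperone RNA than the expanded libraries of that origin, with no overlap, and the SF libraries held the largest. In bulk RNA, fewer cells of a type and less RNA per cell cannot be told apart. Hspa1a and Hspa1b alone made up 0.641% and 0.618% of SF counts but no more than 0.00145% of the counts in any expanded library.

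**Figure D1:**
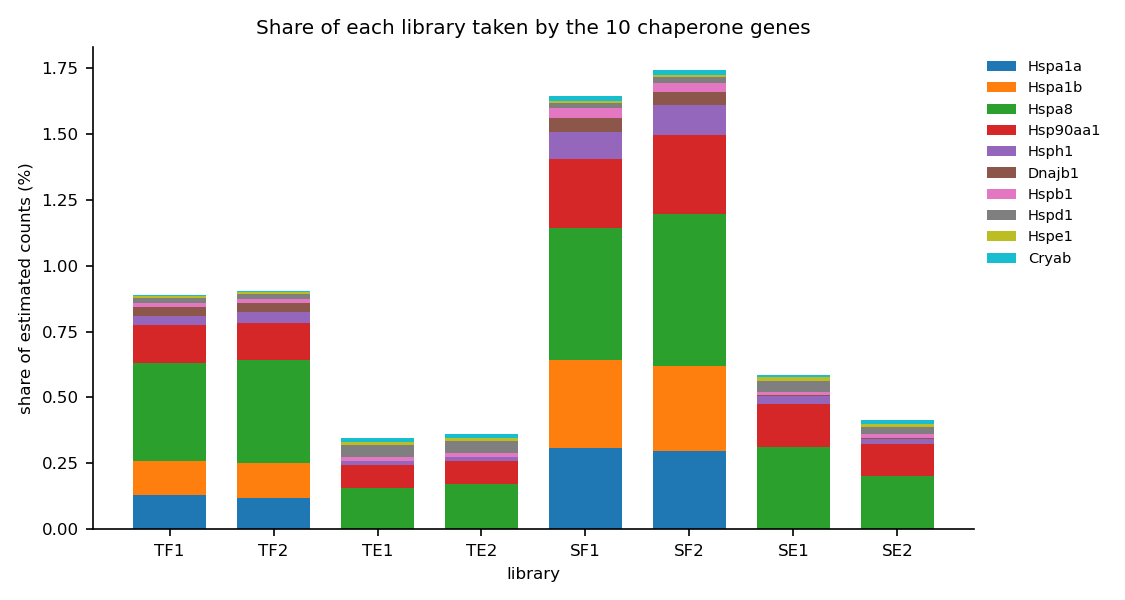
Stacked bars give the percentage of all estimated counts that each of the 10 chaperone genes took in each of the 8 libraries. The bars of the fresh libraries reach 0.889% to 1.74% and those of the expanded libraries 0.347% to 0.585%, and the Hspa1a and Hspa1b segments are visible in fresh libraries only.

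Below, levels are in CPM, counts scaled to a common library total with TMM factors. Differences are log2 fold changes with standard errors from edgeR's quasi-likelihood test. A gene was called at a Benjamini-Hochberg adjusted p below 0.05 over all 17582 genes and a level more than 25% higher in 1 group than in the other. In expanded against fresh teratoma-derived cells, 9 members were called, where 26.1% of all tested genes were. Of these 6 fell and 3 rose, where 16.2% of all tested genes fell and 9.86% rose. In expanded against fresh satellite cells 8 were called, where 40.7% of all genes were, and 7 fell and 1 rose, where 19.8% of all genes fell and 20.9% rose. The 6 that fell in both were Hspa1a, Hspa1b, Hspa8, Hsp90aa1, Hsph1 and Dnajb1, where 9.81% of all genes fell in both. Hspe1 rose in both, as did 6.34% of all genes. Every expanded library lay below every fresh library of its origin for 6 members in teratoma-derived and 8 in satellite cells, and above for 3 and 2, where 37.7% and 38.4% of all genes lay below and 31.8% and 33.9% above. The median member changed by -1.01 and -1.33 on the log2 scale in these comparisons, where the median of all genes changed by -0.18 and -0.23. Another scaling moved the median of all genes by up to -0.19, in the satellite comparison under median-ratio size factors, and no scaling turned the direction of any of these called members.

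**Figure D2:**
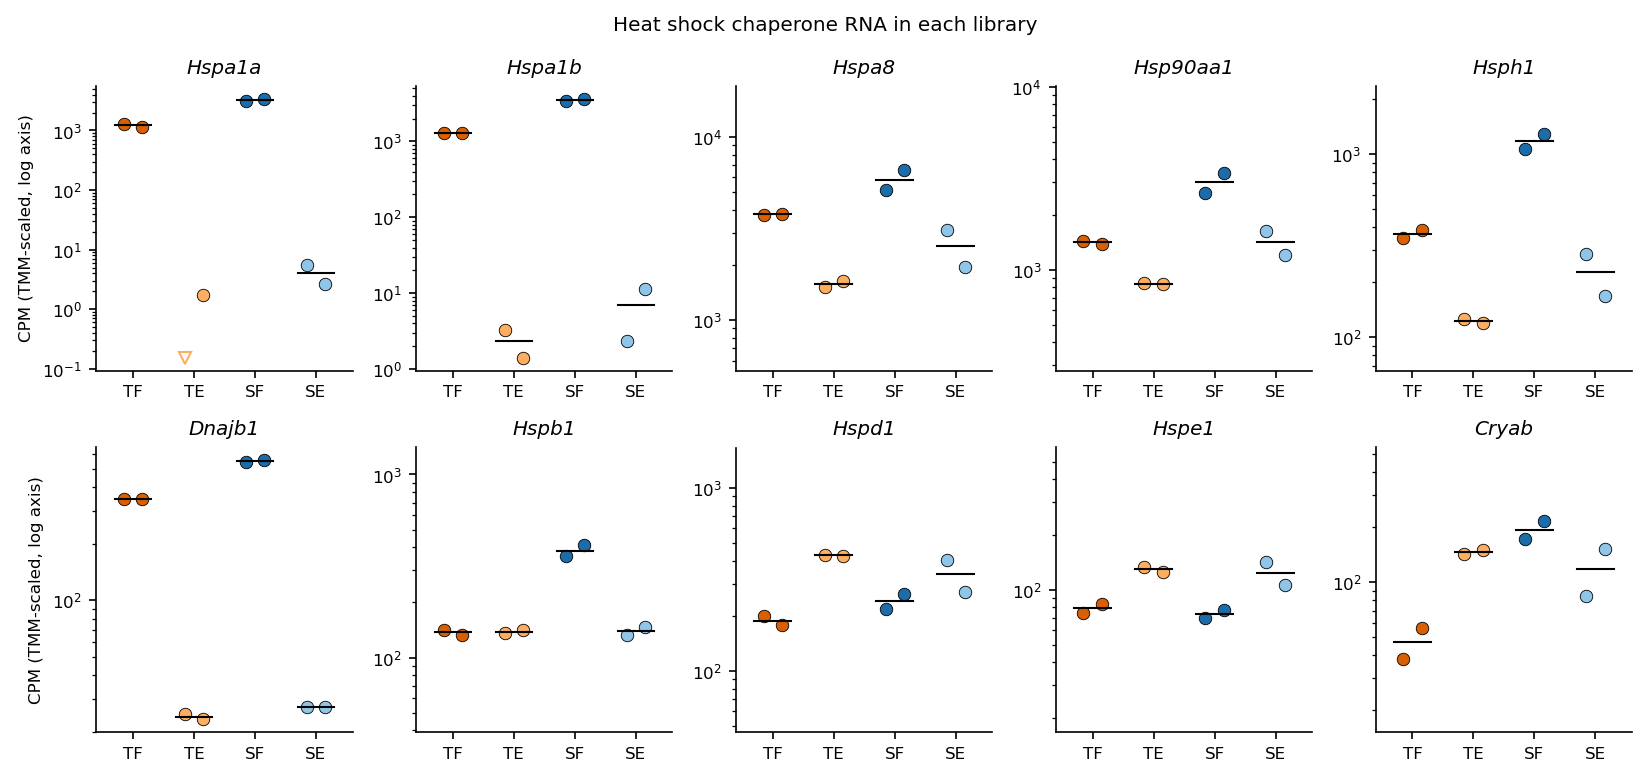
Each panel gives the level of 1 member in each library, in CPM on a log axis whose range differs between panels, with points for libraries and a line at the mean of 2 replicates. The open triangle for Hspa1a stands for the TE library at 0 counts, drawn at the level of 3 counts (0.151 CPM), and no mean is drawn there. Hspa1a, Hspa1b and Dnajb1 drop furthest from fresh to expanded, while Hspd1 and Hspe1 are higher after expansion.

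The inducible HSP70 genes showed the widest difference of all members between fresh and expanded cells, with no expanded library above 11.5 CPM for either copy. Hspa1a lies on chromosome 17 at 34969190 to 34972156 and Hspa1b at 34956436 to 34959238 (GRCm38), both on the minus strand, and their products differ hardly at all. Hspa1a stood at 1294 and 1138 CPM in TF, 0 and 1.71 in TE, 3122 and 3384 in SF, and 5.42 and 2.63 in SE. Hspa1b stood at 1296 and 1283 CPM in TF, 3.28 and 1.40 in TE, 3386 and 3629 in SF, and 2.31 and 11.5 in SE. For both copies every SF library was above every TF library, and both were far above all expanded libraries. Of the 31-base words in Hspa1a transcripts, 63.8% also occur in Hspa1b. The division of counts between the copies is therefore uncertain, and their sum is the safer measure in that respect. The sum does not settle sharing with Hspa1l, another HSP70 gene. In its transcripts 12.1% of the words of Hspa1a and 11.1% of those of Hspa1b occur.

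The sum of Hspa1a and Hspa1b was 2590 and 2421 CPM in TF, 3.28 and 3.11 in TE, 6509 and 7012 in SF, and 7.73 and 14.1 in SE. No 2 groups overlapped. On expansion of teratoma-derived cells the sum fell by 9.61 ± 0.40 on the log2 scale, a 782-fold difference (adjusted p = 2.1e-06). In satellite cells it fell by 9.28 ± 0.39, a 621-fold difference (adjusted p = 1.16e-06). The size of the fall did not differ detectably between the origins (difference -0.33 ± 0.41, adjusted p = 0.66). Fresh teratoma-derived cells held 2.70-fold less than fresh satellite cells (log2 difference -1.43 ± 0.28, adjusted p = 0.00585). Expanded teratoma-derived cells held 3.40-fold less than expanded satellite cells (-1.77 ± 0.31, adjusted p = 0.00897). The difference between the expanded groups rests on estimated counts of 65.37 and 59.96 in TE and 164.5 and 247.45 in SE. Hspa1l, which shares sequence with both copies, stood at 1.92 and 1.35 CPM in TE and 4.62 and 1.94 in SE. Whether reads of Hspa1l entered the sum was not tested. Tested one at a time with only the fresh groups in the fit, both copies passed, at -1.51 for Hspa1a (adjusted p = 0.00577) and -1.53 for Hspa1b (adjusted p = 0.00571). They also passed without the filter on low counts (adjusted p = 1.77e-06 and 1.36e-06). In the shared fit over the 4 groups, neither copy passed in the comparison of the fresh groups, with adjusted p = 0.11 for Hspa1a and 0.082 for Hspa1b. Both passed there when either SE library was left out of the shared fit (0.019 and 0.023 for Hspa1a, 0.000793 and 0.000913 for Hspa1b), and Hspa1a also when either TE library was (0.011 each).

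Hspa8, the constitutive HSP70 that also strips clathrin from vesicles, kept the highest level per kilobase of exon in each group among members taken singly. It stood at 3744 and 3815 CPM in TF, 1516 and 1634 in TE, 5111 and 6589 in SF, and 3117 and 1943 in SE. In SF the sum of Hspa1a and Hspa1b, at 6509 and 7012 CPM, was above Hspa8 in each library. For Hspa8 each expanded group lay below its fresh group without overlap. Hspa8 fell 2.40-fold in teratoma-derived cells (log2 change -1.26 ± 0.28, adjusted p = 0.00902) and 2.31-fold in satellite cells (-1.21 ± 0.28, adjusted p = 0.007). Without the first or the second TE library the teratoma call was lost (adjusted p = 0.12 and 0.088), and with only the 2 satellite groups in the fit the satellite call was lost too (adjusted p = 0.061).

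Hsph1 and Dnajb1 encode partners of HSP70, an exchange factor of the HSP110 family and a J-domain protein of the stress response. Hsph1 stood at 347 and 383 CPM in TF, 125 and 120 in TE, 1067 and 1288 in SF, and 286 and 168 in SE. The SF libraries were above all others, and the SE libraries lay below both TF libraries. Hsph1 fell 2.98-fold in teratoma-derived cells (log2 change -1.57 ± 0.26, adjusted p = 0.00189) and 5.18-fold in satellite cells (-2.37 ± 0.27, adjusted p = 0.000116). The difference between these falls was 0.80 ± 0.36 (adjusted p = 0.18), and it passed without the first SE library (1.24, adjusted p = 0.017). Fresh teratoma-derived cells held 3.22-fold less Hsph1 than fresh satellite cells (-1.69 ± 0.26, adjusted p = 0.00189).

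Dnajb1 had replicates close together in every group. It stood at 348 and 346 CPM in TF, 24.9 and 23.2 in TE, 544 and 556 in SF, and 27.0 and 27.2 in SE. The fresh groups were apart from each other, the expanded groups nearly met, and a wide gap lay between fresh and expanded cells. Dnajb1 fell 14.4-fold in teratoma-derived cells (log2 change -3.85 ± 0.18, adjusted p = 2.48e-06) and 20.3-fold in satellite cells (-4.34 ± 0.19, adjusted p = 1.26e-06). Its level in TF was 1.58-fold below that in SF (-0.66 ± 0.16, adjusted p = 0.017), a call lost without any one TF or TE library (adjusted p from 0.072 to 0.14). Between TE and SE it differed by -0.17 ± 0.17 (adjusted p = 0.66).

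Hsp90aa1, the stress-inducible HSP90, changed in the same direction by less. It stood at 1435 and 1385 CPM in TF, 848 and 832 in TE, 2638 and 3388 in SF, and 1630 and 1202 in SE. The TF values lie within the range of SE, so only the SF libraries stood above all the rest and only the TE libraries below. Hsp90aa1 fell 2.13-fold in satellite cells (log2 change -1.09 ± 0.23, adjusted p = 0.00487). In teratoma-derived cells it fell 1.68-fold (-0.75 ± 0.23, adjusted p = 0.04), a call that was lost without any one of the 4 TF and TE libraries (adjusted p from 0.17 to 0.3) and with a replicate block (adjusted p = 0.061). TF cells held 2.14-fold less than SF cells (-1.10 ± 0.23, adjusted p = 0.00916), which did not pass without the first or the second TF library (adjusted p = 0.059 and 0.071).

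**Figure D3:**
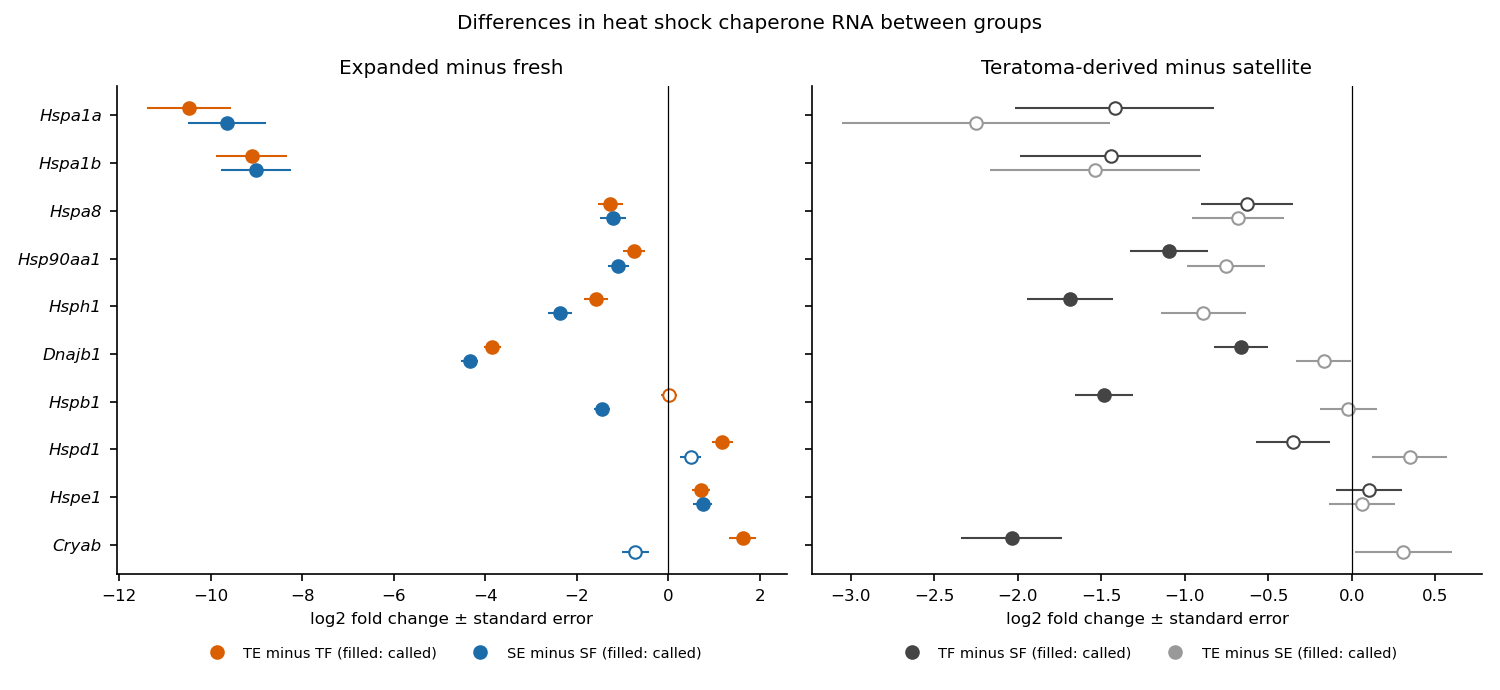
Log2 fold changes with standard errors are given for the 10 members, expanded minus fresh on the left and teratoma-derived minus satellite on the right, with filled points for called genes. On the left the HSP70, HSP110, J-domain and HSP90 genes lie below 0 in both origins, while Hspb1 and Cryab are the members whose changes differ between origins by the test of the difference. On the right no point for expanded cells is filled.

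The small heat shock protein genes were the members whose change on expansion differed between the origins by the test. Hspb1 stood at 141 and 133 CPM in TF, 135 and 141 in TE, 357 and 411 in SF, and 134 and 147 in SE. Only the SF libraries stood out, and the other 6 libraries lay between 133 and 147 CPM. Hspb1 fell 2.74-fold on expansion of satellite cells (log2 change -1.45 ± 0.17, adjusted p = 0.000173). In teratoma-derived cells the change was 0.01 ± 0.17 (adjusted p = 0.98), with a sign that turned under median-ratio scaling, and the difference between the origins was 1.46 ± 0.24 (adjusted p = 0.00432). TF cells held 2.80-fold less Hspb1 than SF cells (-1.49 ± 0.17, adjusted p = 0.000514). Of the 31-base words of Hspb1 transcripts, 52.3% also occur in the pseudogene Hsp25-ps1.

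Cryab, which encodes αB-crystallin, a small heat shock protein of muscle and lens, rose in teratoma-derived cells, and in satellite cells its expanded libraries lay below the fresh ones. It stood at 38.3 and 56.2 CPM in TF, 142 and 150 in TE, 173 and 215 in SF, and 84.4 and 151 in SE. TF was the lowest group and SF the highest, and the SE libraries were wide enough apart to enclose those of TE. Cryab rose 3.08-fold in teratoma-derived cells (log2 change 1.62 ± 0.30, adjusted p = 0.00341). In satellite cells the change was -0.72 ± 0.29 (adjusted p = 0.072). That value passed under median-ratio scaling (-0.91, adjusted p = 0.03), under DESeq2 (-0.91, adjusted p = 0.00989) and with a replicate block (-0.76, adjusted p = 0.024). It also passed without the filter on low counts (-0.71, adjusted p = 0.011) and with Rn45s removed (-0.86, adjusted p = 0.043). It did not pass with only the satellite groups in the fit, against the 25% threshold or with the HSP70 copies summed. Without the second SE library it was -1.19, and without the first it was -0.34 and did not pass. The difference between the origins was 2.34 ± 0.41 (adjusted p = 0.00574) and stayed called under every alternative run, as did that of Hspb1. TF cells held 4.10-fold less Cryab than SF cells (-2.04 ± 0.30, adjusted p = 0.00159). The start of Cryab lies 1029 bases from that of Hspb2, another small heat shock protein gene, on the opposite strand of chromosome 9. Hspb2 stood at 5.55 and 7.02 CPM in TF, 45.9 and 50.5 in TE, 1.02 and 0.606 in SF, and 8.30 and 24.7 in SE.

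Of the mitochondrial chaperonin pair, Hspe1 rose on expansion in both origins and Hspd1 passed the test in teratoma-derived cells. Hspd1 encodes HSP60 and Hspe1 its lid HSP10, and they lie head to head on chromosome 1 (Hspd1 55077835 to 55088243 on the minus strand, Hspe1 55088132 to 55091307 on the plus strand). Hspd1 stood at 199 and 177 CPM in TF, 432 and 423 in TE, 217 and 263 in SF, and 404 and 269 in SE. Both expanded groups lay above both fresh groups, although the lower SE library cleared the higher SF library by only a few CPM. Hspd1 rose 2.27-fold in teratoma-derived cells (log2 change 1.18 ± 0.23, adjusted p = 0.00428). In satellite cells the change was 0.49 ± 0.22 (adjusted p = 0.11), and it was 0.76 without the second SE library (adjusted p = 0.014) but 0.18, which did not pass, without the first. The difference between the origins did not pass (0.70 ± 0.32, adjusted p = 0.18), though it did without the first SE library (1.03, adjusted p = 0.037).

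Hspe1 stood at 74.3 and 83.8 CPM in TF, 133 and 125 in TE, 69.8 and 77.5 in SF, and 142 and 105 in SE. The fresh groups overlapped each other, as did the expanded groups, and every expanded library was above every fresh one. Hspe1 rose 1.63-fold in teratoma-derived cells (log2 change 0.71 ± 0.20, adjusted p = 0.027) and 1.68-fold in satellite cells (0.75 ± 0.20, adjusted p = 0.014). The first call was lost without any one TF or TE library (adjusted p from 0.083 to 0.18) and when tested against the 25% threshold itself (adjusted p = 0.067). The second was lost without the first SF library (adjusted p = 0.067) or the first SE library (adjusted p = 0.091).

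Between the fresh groups, 5 members were lower in TF than in SF and 0 were higher, where 24.2% of all tested genes were called, 9.13% lower and 15.1% higher. The 5 were Hsp90aa1, Hsph1, Dnajb1, Hspb1 and Cryab. Without the first or the second TF library the calls of Hsp90aa1 and Dnajb1 were lost, and fewer of all genes were called too. In 9 members the TF libraries lay below the SF libraries without overlap and in 0 above, where 29.3% of all genes lay below and 35.5% above, and the exception was Hspe1. Between the expanded groups edgeR called 0 members, where 7.21% of all genes were called, 4.07% lower and 3.15% higher. For 5 members the TE libraries lay below and for 1 above the SE libraries without overlap, where 26.1% and 23.9% of all genes did. DESeq2 called 3 members, all lower in TE, namely Hsp90aa1, Hspa8 and Hsph1, where it called 2147 of all genes, 1252 of them lower. With the HSP70 copies summed, edgeR called the sum. In the test of whether expansion acted differently in the origins, 2 members were called, where 14.3% of all genes were. For both, the change on expansion was higher in teratoma-derived than in satellite cells, as for 4.7% of all genes, while for 9.62% it was lower. DESeq2 called 5, all with a higher change in teratoma-derived cells, where it called 3504 of all genes, 1538 of them in that direction.

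Per kilobase of exon, the order of the members changed with expansion. In SF the mean levels were 2444 CPM per kilobase for Hspa8, 1251 for Hspa1b, 1096 for Hspa1a and 891 for Hsp90aa1. Hspa1b did not overlap Hspa8 there, while the order of Hspa1b and Hspa1a is not resolved, since the division of their counts is uncertain. The remaining 6 members lay between 95.2 and 372, with Hspd1 and Hspe1 lowest and overlapping each other. In TF the mean of Hspa8 was 1579 CPM per kilobase, Hspa1b followed at 460, and Hsp90aa1 and Hspa1a overlapped at 417 and 410. Hspe1 stood there at 102, Hsph1 at 86.5, Hspd1 at 77.7 and Cryab, the lowest, at 36.6. In TE the mean of Hspa8 was 658 CPM per kilobase, that of Hsp90aa1 248, that of Hspd1 177 and that of Hspe1 167, and the inducible pair came last at 0.835 and 0.289. Hspd1 and Hspe1 thus came directly after Hsp90aa1 in TE, while in TF Hspb1 and the inducible pair had higher means than both. Dnajb1 also had a higher mean in TF, but its libraries overlapped those of Hspe1 there. In SE the levels of Hspe1, Hspd1 and Hspb1 were 160, 139 and 136 CPM per kilobase and overlapped between libraries, so their order there is not resolved. Shared sequence bears on these levels as well. Of the 31-base words, 65.4% of those of Hspa1a, 68.0% of Hspa1b and 52.3% of Hspb1 occur in transcripts of other genes. So do 43.5% of those of Hspa8, 51.4% of Hsp90aa1, 50.1% of Hspd1 and 24.8% of Hspe1. Dnajb1 shares 0.41%, and Hsph1 and Cryab share none.

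The genes with the nearest profile over the 8 libraries were found by the root mean square difference of centred log2 normalized counts among 12681 genes. Hspa1b was nearest to Steap4, a metalloreductase gene (0.42), Gdf10 (0.52) and Crispld2 (0.56), which is a looser match than the others. Hspa8 was nearest to Mpdz (0.15), Rnf24 (0.17) and Dnaja1 (0.19), a J-domain partner of HSP70. Hspd1 was nearest to Dph1, which acts in diphthamide synthesis (0.077), the ribosome assembly gene Pes1 (0.11) and Ice2 (0.11). Cryab was nearest to Hspbap1 (0.25), whose product is named for binding HSPB1, and to Vipr2 (0.27) and Samd4 (0.27).

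Outside the 10 members the chaperone network went in both directions. Hsf1, the stress-activated factor, stood between 27.2 and 61.1 CPM in all libraries and was not called in any comparison. Of 4 tested genes of heat shock factors and their binding protein, 0 were called in teratoma-derived cells, and 2, Hsf2 and Hsbp1, rose in satellite cells. Hsf2, a related factor, rose 2.24 ± 0.30 on the log2 scale in expanded satellite cells (adjusted p = 0.000367). Hsp90ab1, the constitutive HSP90, lay between 2968 and 4361 CPM and was not called in any comparison, with changes of 0.15 ± 0.23 and 0.16 ± 0.23 on expansion. Bag3, the co-chaperone that links HSP70 to small heat shock proteins, fell in both origins. It stood at 481 and 521 CPM in TF, 82.7 and 95.9 in TE, 1201 and 1543 in SF, and 185 and 128 in SE, with changes of -2.49 ± 0.24 in teratoma-derived cells (adjusted p = 8.81e-05) and -3.13 ± 0.25 in satellite cells (adjusted p = 1.85e-05). Its partner Hspb8 rose instead, from 51.0 and 31.5 CPM in TF to 128 and 133 in TE, and from 29.4 and 34.9 in SF to 172 and 369 in SE (adjusted p = 0.00721 and 0.000173).

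By list, with the count called on expansion of teratoma-derived cells before that of satellite cells, all 8 subunits of the cytosolic chaperonin TRiC had positive changes in both, and 5 and 7 of them rose. Their median changes were 0.70 and 0.86, beside -0.18 and -0.23 over all genes. Cct8, 1 of those subunits, changed by 0.98 ± 0.22 and 1.20 ± 0.22. Of 10 genes of mitochondrial protein quality control, 5 and 6 rose and 0 fell, with medians of 1.02 and 1.23. Hspa9, the mitochondrial HSP70 that hands clients to the Hspd1 barrel, stood at 289 and 302 CPM in TF, 1409 and 1443 in TE, 281 and 374 in SF, and 727 and 775 in SE. It rose by 2.27 ± 0.21 (adjusted p = 6.35e-05) and 1.20 ± 0.20 (adjusted p = 0.00131), and these rises differed (1.07 ± 0.28, adjusted p = 0.034). Of the other 6 small heat shock protein genes, 3 and 4 rose and 0 fell, with medians of 1.85 and 3.15, led by Hspb2 with 2.94 ± 0.51 and 4.34 ± 0.58. Of 18 co-chaperones, 5 and 12 rose and 1 and 3 fell, with medians of 0.51 and 0.76. Of the other 2 HSP90 genes Trap1, which also counts in the mitochondrial list, rose by 0.89 ± 0.19 and 1.29 ± 0.19.

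Falls outside the members were also found among the HSP70 and J-domain lists. Of 9 other HSP70 and HSP110 genes, 2 and 4 rose and 3 and 2 fell (medians 0.47 and 0.77), and Hspa2, an HSP70 known from the testis, fell by 2.42 ± 0.25 and 2.49 ± 0.25 on the log2 scale. Of 13 other J-domain genes, 7 and 5 rose and 3 and 4 fell, with medians of 0.63 and 0.46. Dnaja1, Dnaja4 and Dnajb4 fell in both origins, and in teratoma-derived cells Dnajb4 fell by 1.98 ± 0.22. Of 14 chaperones of the endoplasmic reticulum, 0 rose and 6 fell in teratoma-derived cells, while 8 rose and 3 fell in satellite cells, and the medians were -0.79 and 0.78. Hspa5, the HSP70 of that compartment, fell by 0.83 ± 0.21 (adjusted p = 0.019) and 1.75 ± 0.22 (adjusted p = 0.000224). The reticulum list also divided the fresh groups, with 11 of 14 higher in TF than in SF, where 15.1% of all genes were. The 1 called lower was Hspa5 (-0.67 ± 0.21, adjusted p = 0.047), where 9.13% of all genes were. Of the members, 5 were called lower there and 0 higher.

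**Figure D4:**
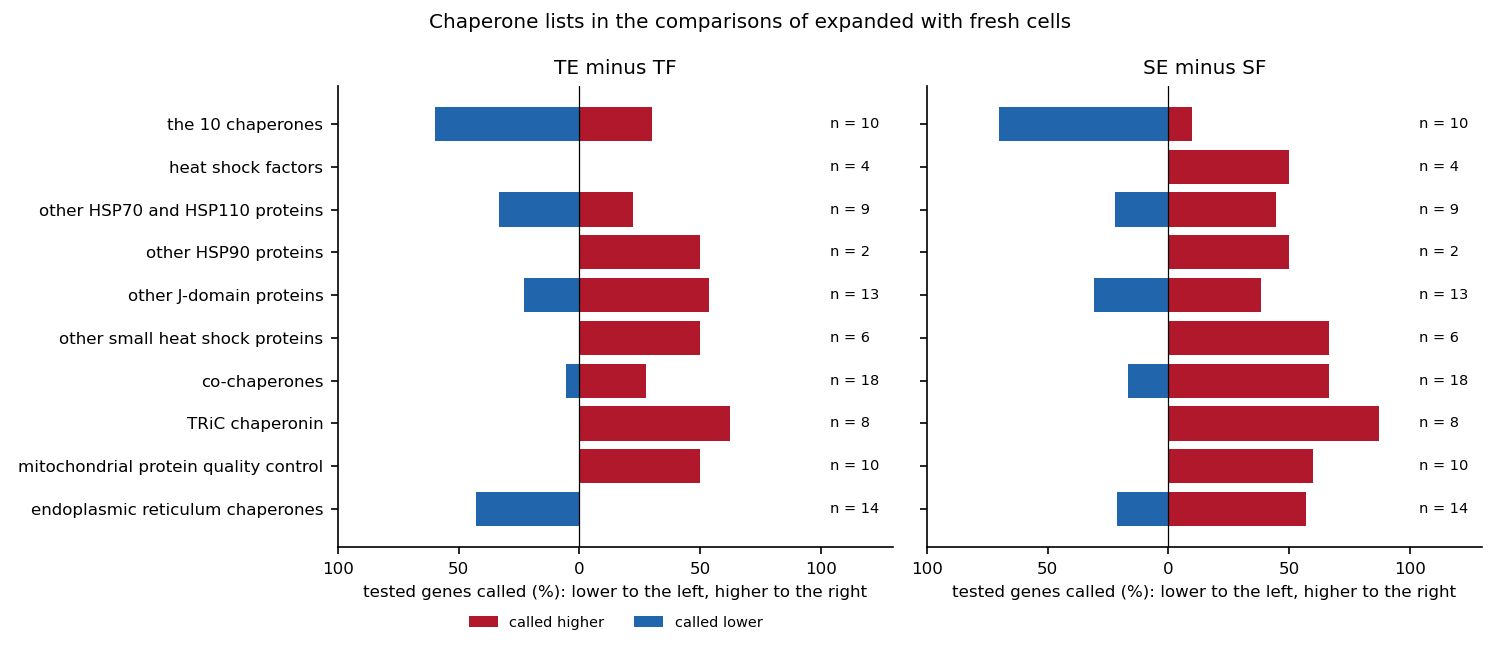
Bars give the percentage of tested genes of each chaperone list that were called lower (to the left) or higher (to the right) in expanded against fresh cells, for teratoma-derived cells on the left and satellite cells on the right, with the number tested beside each bar. The 10 members are called mostly lower, while the TRiC, mitochondrial and other small heat shock protein lists hold called genes on the higher side only.

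Other gene lists also separated fresh from expanded cells. All 16 immediate early genes, which are induced within minutes and include the known markers of tissue dissociation Fos, Jun and Egr1, fell on expansion in both origins. Their sum was between 15784 and 18675 CPM in fresh libraries and between 722 and 955 in expanded libraries. Endothelial markers summed to between 69.6 and 355 CPM in fresh and between 0.467 and 2.22 in expanded libraries, and Kdr, Emcn and Cldn5 were at 0 in all 4 expanded libraries. Fibro-adipogenic markers summed to between 1025 and 1838 CPM in fresh and between 2.39 and 7.73 in expanded libraries. Haematopoietic markers summed to 488 CPM in the first TF library, between 33.9 and 46.3 in the other fresh libraries, and between 1.11 and 6.52 in expanded ones, where Ptprc and Adgre1 were at 0. Muscle differentiation markers summed to between 192 and 2413 CPM in fresh and between 10968 and 24165 in expanded libraries, and 10 and 11 of 12 rose. The 8 myogenic progenitor markers, which hold 2 genes related to the sort (Itga7 and Vcam1), summed to between 1477 and 2955 CPM in fresh and between 2255 and 3335 in expanded libraries, but the sum hides changes in both directions. Pax7, Myf5, Vcam1 and Chodl fell in both origins, while 4 of the 8 rose in teratoma-derived and 2 in satellite cells. Pax7, the defining satellite cell factor, lay between 199 and 319 CPM in fresh and between 78.2 and 115 in expanded libraries, and fell by 1.49 ± 0.27 on the log2 scale in teratoma-derived cells (adjusted p = 0.00361) and by 1.38 ± 0.27 in satellite cells (adjusted p = 0.00325). Pericyte and smooth muscle markers summed to between 1038 and 1301 CPM in fresh and between 459 and 1685 in expanded libraries, and Schwann cell markers to between 263 and 409 and between 599 and 1002. In these lists 1 gene each, Acta2 and Ncam1, rose in both origins, while 6 and 5 of 7 pericyte and smooth muscle markers and 2 and 2 of 5 Schwann cell markers fell. The part of cell composition, of dissociation and of differentiation in the chaperone differences was not tested.

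**Figure D5:**
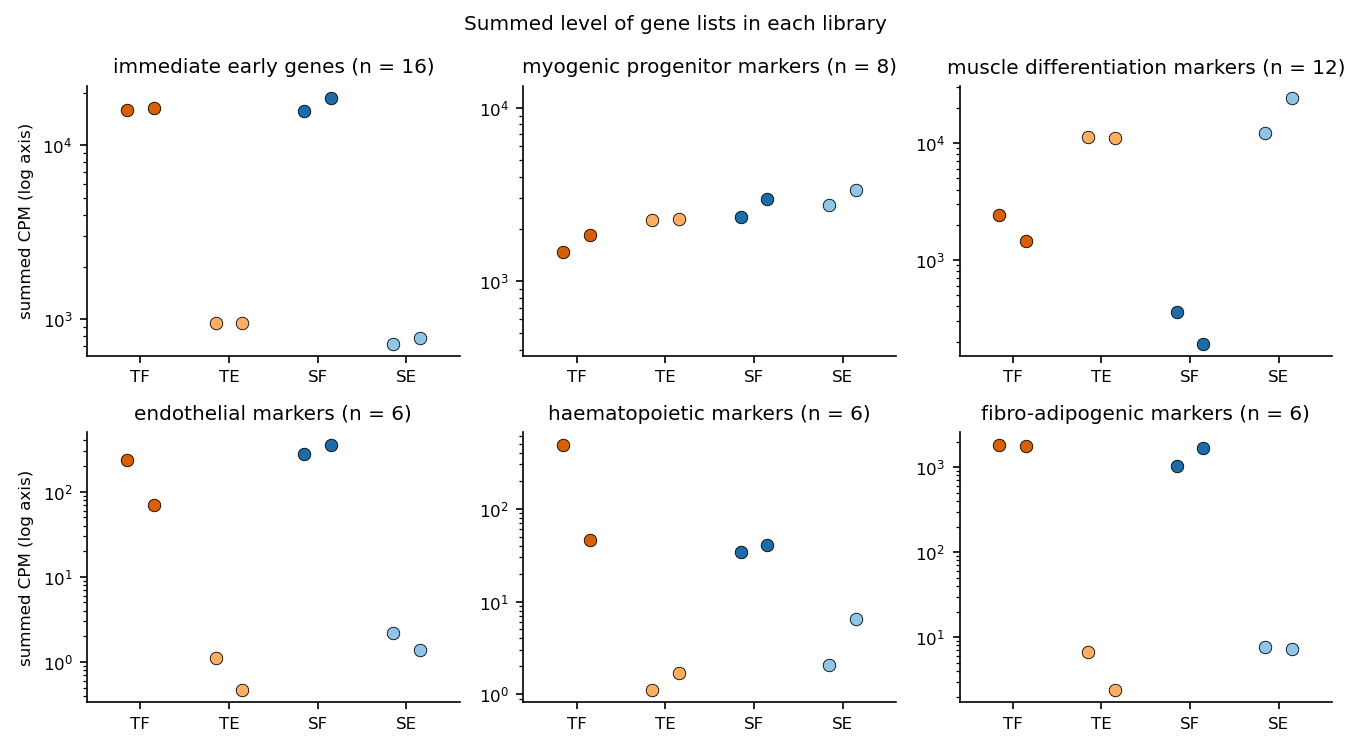
Each panel gives the summed level of 1 gene list per library, in CPM on a log axis whose range differs between panels. Immediate early genes and the endothelial, haematopoietic and fibro-adipogenic markers are higher in every fresh library than in any expanded one, muscle differentiation markers are lower, and the myogenic progenitor sum, whose genes moved in both directions, spans 1477 to 3335 CPM with overlap.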

How the data were processed

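RNA-seq libraries were made by the submitters from total RNA with a stranded Pico Input kit and sequenced as 150-base pairs. The authors deposited 1 table of estimated counts per gene, not normalized, in which 74.4% to 84.4% of the values per library are whole. The submitters' processing notes name CASAVA and kallisto 0.44.0 and the builds GRCm38 and mm10. How reads shared by similar genes were divided is not given in the sources used here, which bears on the HSP70 copies and on genes with pseudogenes.

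The estimated counts were rounded, filtered with filterByExpr, scaled by TMM and tested with edgeR 4.0.16 (R 4.3.3) in 1 quasi-likelihood fit over the 4 groups, whose common dispersion was 0.233. Group means and SDs rest on 2 libraries. Alternatives were median-ratio size factors, no filter, DESeq2 1.42.0, only the groups compared, a replicate block, a test against the 25% threshold (glmTreat), removal of Rn45s, the summed HSP70 copies, and each library left out. Coordinates, exon lengths (basic protein-coding transcripts) and 31-base words came from GENCODE M21, matched by symbol. All members were named. For other chaperone lists the names were limited to partners of members and at most 2 called genes a list and comparison with the largest change, and Cct8, Dnaja1 and Hsf2 fall under this rule or the profile search. The members and lists were chosen with earlier results of these data known.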

Additional observations from a re-analysis of the deposited data

Results flagged for a closer look

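The change on expansion differed between the origins for 2 members by the interaction term of the edgeR fit. For Hspb1 the log2 change was higher by 1.46 in teratoma-derived than in satellite cells. The fall within satellite cells was called and the change within teratoma-derived cells was not, and both satellite libraries at passage 8 lay below both fresh ones. For Cryab the log2 change was higher by 2.34 in teratoma-derived cells, where both expanded libraries lay above both fresh ones, while in satellite cells both expanded libraries lay below. The difference was of one sign in every alternative run for both genes. Groups of 2 libraries were not searched for outlying samples.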

How the results depend on the processing

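Over the alternatives, 144 of 160 member changes in TE against TF kept their direction and call, 150 of 160 in SE against SF, 137 of 160 in TF against SF, 138 of 160 in TE against SE and 124 of 150 for the difference between the expansions, for which a fit with only the groups compared has no value. In these counts the result for the summed HSP70 copies stands under both names. Every sign that turned belonged to a change that was not called in the analysis of all libraries, and the cause was not tested. In TE against TF, Hspb1 turned to -0.044 under median-ratio size factors and under DESeq2 and to -0.0091 with only the groups compared. In TF against SF, Hspe1 turned to -0.056 under median-ratio factors, -0.057 under DESeq2 and -0.039 with Rn45s removed. For the difference between the expansions, median-ratio factors, DESeq2 and removal of Rn45s gave 0.046, 0.027 and 0.030 for Hspa1b, 0.078, 0.079 and 0.078 for Hspa8, and 0.093, 0.094 and 0.090 for Hspe1. The replicate block gave 0.020 for Hspa1b there.

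Between TE and SE, 2260 genes were called without the filter and 2147 by DESeq2, where edgeR called 1268. Without the filter and by DESeq2, 3 members each were called lower, and with the HSP70 copies summed the sum was. DESeq2 called 5 members higher for the difference between the expansions, where it called 3504 genes, 1538 of them higher. With 1 library left out at a time, the genes called ranged from 2739 to 5439 in TE against TF, from 2639 to 5072 in TF against SF, from 653 to 1698 in TE against SE and from 1467 to 2996 for the difference. Members called ranged from 0 to 2 higher in SE against SF, from 3 to 7 lower in TF against SF, from 0 to 4 lower in TE against SE, and for the difference from 2 to 4 higher and from 0 to 1 lower. In TE against SE the changes ranged from -2.28 to 0.022 for Hspa1b, from -0.079 to 0.049 for Hspb1, from -0.14 to 0.30 for Hspe1 and from -0.044 to 0.79 for Cryab. For the difference between the expansions they ranged from -0.84 to 1.46 for Hspa1b, from -0.36 to 0.34 for Hspa8, from -0.25 to 0.20 for Hspe1 and from -7.61 to 0.19 for Hspa1a. The low end for Hspa1a rests on a lone TE library at 0 counts, where the fitted value depends on the prior count and gives no size.

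The deviations of same-numbered libraries from their group means correlated between -0.034 and 0.017. With 2 libraries a group, such values cannot show whether same-numbered libraries shared a source. With the replicate block, 4321 genes were called in TE against TF where 4581 were without it. Of the member calls, the block ended that of Hsp90aa1 in TE against TF (-0.75, adjusted p = 0.061) and added that of Cryab in SE against SF (-0.76, adjusted p = 0.024). Among all genes, the share of calls that were higher was 51.4% in SE against SF and 40.8% under DESeq2, 62.3% in TF against SF and 52.1% under median-ratio factors and 48.7% under DESeq2, and 32.8% for the difference and 43.9% under DESeq2. With 2 libraries a group the spread is poorly known, and in expanded cells the HSP70 copies rest on few counts.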
